A study of Mus musculus with 4 samples.

Results

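The 10 genes described here are markers of the kidney's proximal tubule, measured in ureter samples: Lrp2, Cubn, Slc34a1, Slc34a3, Slc5a2, Slc22a6, Slc22a8, Miox, Kap and Slc7a13. They were taken by name, as genes with a probe set (the array's group of probes for one transcript) that the platform annotation gives 1 symbol, with the brightest probe set used where a gene has several. All 10 were on the array with 1 probe set each, among 19296 genes in all. Ureters came from 4 male mice of a mixed 129Sv/C57BL6 strain, 1 array per mouse. The 2 wild type mice (miR-143/145+/+) were 4.5 months old with kidneys recorded as normal, and the 2 knockout mice (miR-143/145-/-), in which miR-143 and miR-145 are deleted, were aged 2.5 months and had hydronephrosis, in which retained urine distends the kidney. The effects of genotype, age and kidney state cannot be told apart, and the labels do not say how the ureter was dissected from the kidney.

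The proximal tubule is the first stretch of the nephron after the glomerulus. Its cells take back most of the filtered glucose, phosphate, amino acids and protein from the urine and secrete organic acids and drugs into it. The ureter wall, by contrast, is built of urothelium, connective tissue and smooth muscle, and is not known for these transport genes. Kidney tissue or cells carried into a ureter sample would bring their RNA along, so the markers serve here as a reading of tubule RNA in each sample. No kidney array was part of the comparison, so no share of kidney tissue can be given, and in bulk RNA fewer cells of a type and less RNA per cell cannot be told apart.

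None of the tubule markers passed the test between genotypes, and 9 of the 10 differed more between the 2 knockout mice than between the genotype means. Knockout replicate 1 was the highest of the 4 arrays for 9 of the 10 genes, against 17.3% of all genes. For 8 of them wild type replicate 2 came next, an order met by 4.36% of all genes. Wild type replicate 1 was the lowest array for 6 members and knockout replicate 2 for 3, and these arrays were tied for Slc34a1. The mean over the 10 genes was log2 6.47 and 7.44 for the wild type mice and log2 8.91 and 6.70 for the knockout mice. Here and in what follows, paired values belong to replicate 1 and replicate 2 of a genotype, and 4 values run from the wild type pair to the knockout pair. Against a background level of log2 6.58, the value below which 95% of the olfactory receptor genes on the array lay, 5 and 8 of the members were detected in the wild type mice. In the knockout mice the numbers were 10 and 7. Of all genes, 70.0% to 73.8% lay above that level on each array.

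**Figure D1:**
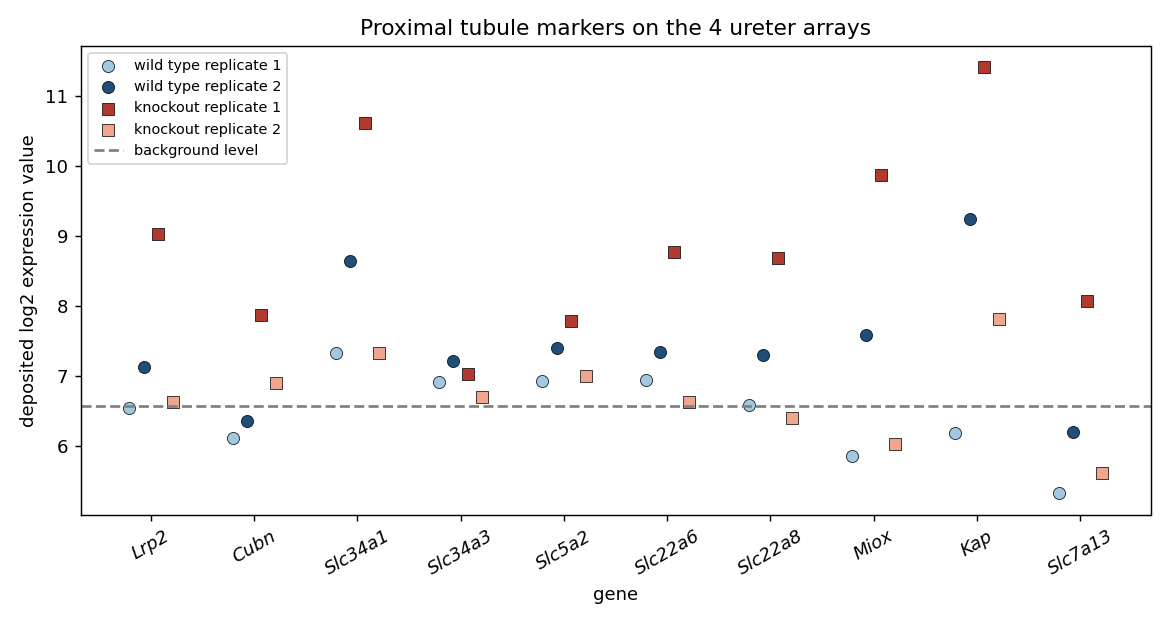
Deposited log2 expression value (vertical axis) of each of the 10 proximal tubule markers (horizontal axis) on the 4 ureter arrays, 1 point per mouse, with the background level of log2 6.58 as a dashed line. Knockout replicate 1 is the highest point for every gene except Slc34a3, and knockout replicate 2 lies between the wild type values for 5 of the 10 genes.

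The sequences upstream of the members' start sites were searched for motifs of factors known from tubule genes. Upstream windows were found for 8 of the 10 members in RefSeq (GRCm38.p6), all but Slc5a2 and Slc7a13, and the 250 bases before each start were searched on both strands for 3 motifs, chosen with the expression values known. The half-site of HNF1, a transcription factor of tubule and liver cells, is GTTAAT, or ATTAAC on the other strand; the core used for HNF4, a nuclear receptor of tubule and liver cells, is CAAAGTCCA; and the half-site used for the androgen receptor is AGAACA. The HNF1 half-site was present upstream of Slc34a1, Slc22a6, Slc22a8 and Miox, 4 of 8 windows, and in 6.43% of all 32851 windows of that length. The HNF4 core was in 0 of the 8 and in 0.384% of all windows, and the androgen receptor half-site was in 1 of the 8, that of Slc34a1, and in 16.1% of all. The windows of Lrp2, Cubn, Slc34a3 and Kap held 0 matches. Knockout replicate 1 exceeded replicate 2 for these genes by 2.40, 0.97, 0.33 and 3.61 on the log2 scale. For Slc34a1, Slc22a6, Slc22a8 and Miox the gaps were 3.29, 2.14, 2.28 and 3.85. Whether the motifs go with the variation between mice was not tested. Such matches describe the letters and show no binding.

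Shown here are 4 windows, 5′ to 3′, with matches to these motifs in capitals and no overlap between them. Slc22a6 and Slc22a8, at chr19:8617746-8617995 (+ strand) and chr19:8592932-8593181 (+ strand), are a related pair of transporter genes that varied alike. Slc34a1 and Slc34a3, at chr13:55399398-55399647 (+ strand) and chr2:25234235-25234484 (- strand), are a related pair that did not. Both pairs were chosen with the expression values known. In the window of Slc34a1 the first run of capitals is the androgen receptor half-site and the other 2 are HNF1 half-sites.
Slc22a6: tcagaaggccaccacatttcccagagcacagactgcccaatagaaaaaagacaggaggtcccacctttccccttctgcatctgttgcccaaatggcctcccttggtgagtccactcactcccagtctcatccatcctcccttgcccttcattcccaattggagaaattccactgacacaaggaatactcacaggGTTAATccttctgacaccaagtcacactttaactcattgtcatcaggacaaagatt
Slc22a8: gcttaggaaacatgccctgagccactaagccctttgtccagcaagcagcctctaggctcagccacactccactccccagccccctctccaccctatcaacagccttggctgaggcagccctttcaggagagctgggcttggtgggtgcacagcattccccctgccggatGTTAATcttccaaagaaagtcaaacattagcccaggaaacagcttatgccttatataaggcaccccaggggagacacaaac
Slc34a1: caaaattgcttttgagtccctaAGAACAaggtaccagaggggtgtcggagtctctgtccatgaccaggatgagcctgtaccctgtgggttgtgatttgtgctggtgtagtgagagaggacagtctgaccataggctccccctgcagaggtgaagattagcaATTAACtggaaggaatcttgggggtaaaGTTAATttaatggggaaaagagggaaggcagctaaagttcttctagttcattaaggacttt
Slc34a3: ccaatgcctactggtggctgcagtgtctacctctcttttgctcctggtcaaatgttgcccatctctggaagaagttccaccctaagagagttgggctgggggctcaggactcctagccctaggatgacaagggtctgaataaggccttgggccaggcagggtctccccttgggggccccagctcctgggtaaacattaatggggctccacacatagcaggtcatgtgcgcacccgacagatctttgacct

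Lrp2 and Cubn encode megalin and cubilin, the paired receptors that take up filtered protein. Lrp2 measured log2 6.55 and 7.13 in the wild type mice and 9.03 and 6.63 in the knockout mice. The knockout values thus lay on both sides of wild type replicate 2, and within the knockout Lrp2 was 5.27-fold higher in replicate 1 than in replicate 2. Cubn measured log2 6.11 and 6.36 in wild type and 7.87 and 6.90 in the knockout mice. It was the 1 member of 10 whose genotypes did not overlap, with knockout higher, which held for 28.0% of all genes. For 0 members both knockout values lay below both wild type values, against 32.0% of all genes. Both wild type values of Cubn lay below background, so the knockout mean exceeded the wild type mean by at least 1.75-fold, and the difference missed the threshold (limma, adjusted p = 0.0762). Among the members Cubn had the smallest p.

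Slc34a1 and Slc34a3 encode sodium-phosphate cotransporters of the brush border, the apical membrane of tubule cells. Slc34a1 measured log2 7.33 and 8.65 in the wild type mice and 10.62 and 7.33 in the knockout mice. Its lower knockout value was identical to its lower wild type value, while knockout replicate 1 was 9.75-fold above knockout replicate 2 and wild type replicate 2 was 2.49-fold above wild type replicate 1. Slc34a3 measured 6.91 and 7.22 for wild type, against 7.03 and 6.69 for knockout. It was the exception among the members, with its highest value in wild type replicate 2 and a range over the 4 arrays of 0.52, against 3.29 for Slc34a1.

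Slc5a2 encodes the main glucose cotransporter of the early proximal tubule. Its values were log2 6.93 and 7.40 in the wild type mice and 7.78 and 7.00 in the knockout mice. The order of the arrays was that of Lrp2, but the gap between the knockout mice was 1.72-fold. Slc22a6 and Slc22a8 encode exchangers that carry organic anions, including many drugs, from blood into tubule cells. Slc22a6 measured 6.95 and 7.34 for wild type, against 8.77 and 6.63 for knockout. Slc22a8 measured 6.59 and 7.30 for wild type, against 8.68 and 6.40 for knockout, where replicate 2 was below background. In knockout replicate 1 Slc22a6 was 4.41-fold and Slc22a8 at least 4.30-fold above knockout replicate 2. Both had their lowest value in knockout replicate 2 and their highest in knockout replicate 1.

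Miox encodes myo-inositol oxygenase, an enzyme that starts the breakdown of inositol and is made mainly in kidney. It measured log2 5.85 and 7.59 in the wild type mice and 9.87 and 6.02 in the knockout mice. The first array of wild type and the second of knockout were below background, and knockout replicate 1 was at least 9.83-fold above knockout replicate 2. The 2 remaining members mark the male mouse kidney. Kap encodes the kidney androgen-regulated protein, made in proximal tubule cells under the control of androgens, and Slc7a13 an amino acid transporter of the last, straight part of the tubule.

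Kap measured log2 6.19 and 9.25 in the wild type mice and 11.42 and 7.81 in the knockout mice. Its range over the 4 arrays, 5.23, was the largest among the members. Kap was 12.2-fold higher in knockout replicate 1 than in knockout replicate 2, and at least 6.37-fold higher in wild type replicate 2 than in wild type replicate 1, which was below background. Slc7a13 measured 5.32 and 6.20 for wild type, against 8.07 and 5.61 for knockout, above background in knockout replicate 1 alone of the 4 arrays. It was there at least 2.83-fold above each of the other 3 arrays.

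Set beside all genes, the gaps between mice of one genotype were wide. Knockout replicate 1 exceeded knockout replicate 2 by at least 1 on the log2 scale for 7 of the 10 members, against 0.694% of all genes. The same gap between wild type replicate 2 and wild type replicate 1 was met by 3 members, Slc34a1, Miox and Kap, against 0.109% of all genes. All 10 members were higher in wild type replicate 2 than in replicate 1 (57.2% of all genes) and all 10 were higher in knockout replicate 1 than in replicate 2 (44.3% of all genes). The mean gap over the members was log2 0.97 ± 0.87 in wild type and log2 2.21 ± 1.20 in knockout (SD over 10 genes, which share the same arrays). Over all genes the mean gaps were 0.03 and -0.01. Ranked over the 19296 genes, Kap had the largest gap between the wild type mice, and Miox the third largest in both genotypes. Each gap is between single arrays and has no replicate check.

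**Figure D2:**
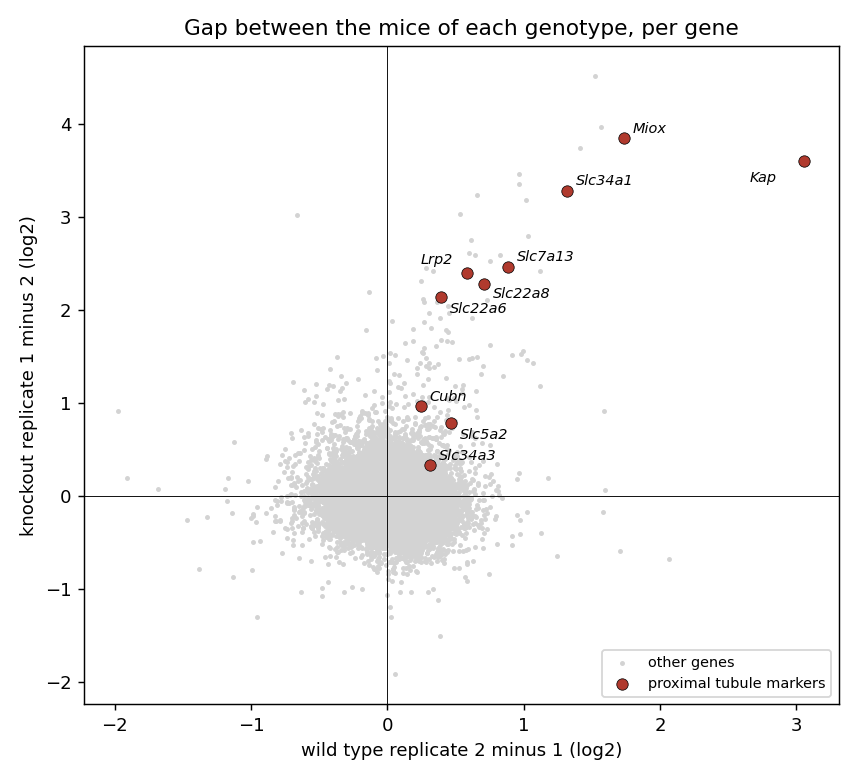
Gap between the 2 mice of each genotype for every gene, wild type replicate 2 minus 1 on the horizontal and knockout replicate 1 minus 2 on the vertical axis, both in log2 units, with the 10 members in red and the other genes in grey. All 10 members lie in the upper right quadrant, 7 of them at 1 or more on the vertical axis.

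Compared across arrays of different genotype, knockout replicate 1 lay above wild type replicate 2 for 9 members, by up to 2.29 on the log2 scale for Miox. Knockout replicate 2 differed from wild type replicate 1 by -0.32 to 0.29 for 8 members. The other 2 were Cubn and Kap, higher in knockout replicate 2 by 0.79 and 1.62. The order of the 4 mice by tubule markers was thus knockout replicate 1, wild type replicate 2, and then the remaining mouse of each genotype, with Cubn and Slc34a3 as exceptions.

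The test of knockout against wild type over all 4 arrays passed none of the members: limma called 0 as higher and 0 as lower at an adjusted p of 0.05, where it called 1.90% of all genes higher and 0.477% lower. Before adjustment, with p under 0.05, 1 member was higher (Cubn) and 0 were lower, against 12.7% and 13.8% of all genes. The median difference over the members was 0.99 on the log2 scale, against -0.02 over all genes, and 9 of the 10 differences were positive. For 9 members the gap between the knockout mice was larger than the difference between the genotype means, which held for 37.7% of all genes.

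Kap had the largest difference, 1.90 (SE 1.27, adjusted p = 0.372), followed by Miox at 1.23 (SE 1.13, adjusted p = 0.516). Their group values were 7.72 ± 2.16 and 9.61 ± 2.55 for Kap, and 6.72 ± 1.23 and 7.95 ± 2.72 for Miox, in wild type and knockout (SD, n = 2 each, arrays below background included). Cubn differed by 1.15 (SE 0.29), and Slc7a13, Lrp2 and Slc34a1 by 1.08, 0.99 and 0.99. Slc22a8 and Slc22a6 differed by 0.60 and 0.56, Slc5a2 by 0.23 and Slc34a3 by -0.20. Other than Cubn, the members had limma adjusted p values from 0.363 to 0.617.

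Either knockout mouse alone would have given a different picture. Without knockout replicate 2, limma called 8 of the 10 members higher and 0 lower, where 2.26% and 0.689% of all genes were called. The median difference was then 1.96, Kap was 3.70 higher (adjusted p = 0.0200) and Lrp2 2.19 higher (adjusted p = 0.000148), while Slc5a2 and Slc34a3 did not pass. Without knockout replicate 1, the median was -0.29 and 8 members were lower on average in knockout, with differences of -0.16 to -0.69. Of these 0 passed, and 1 member, Cubn, passed as higher by 0.66 (adjusted p = 0.0352), where 5.78% of all genes were called higher and 3.26% lower. With 1 knockout array left, its spread is assumed to be that of the wild type pair, so these calls leave out the spread between knockout mice. Without wild type replicate 1 or 2 the median difference over the members was 0.36 and 1.28. Over the 12 alternative fits and leave-outs the adjusted p of Cubn ran from 0.000271 to 0.281, and that of Kap from 0.0200 to 0.961.

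**Figure D3:**
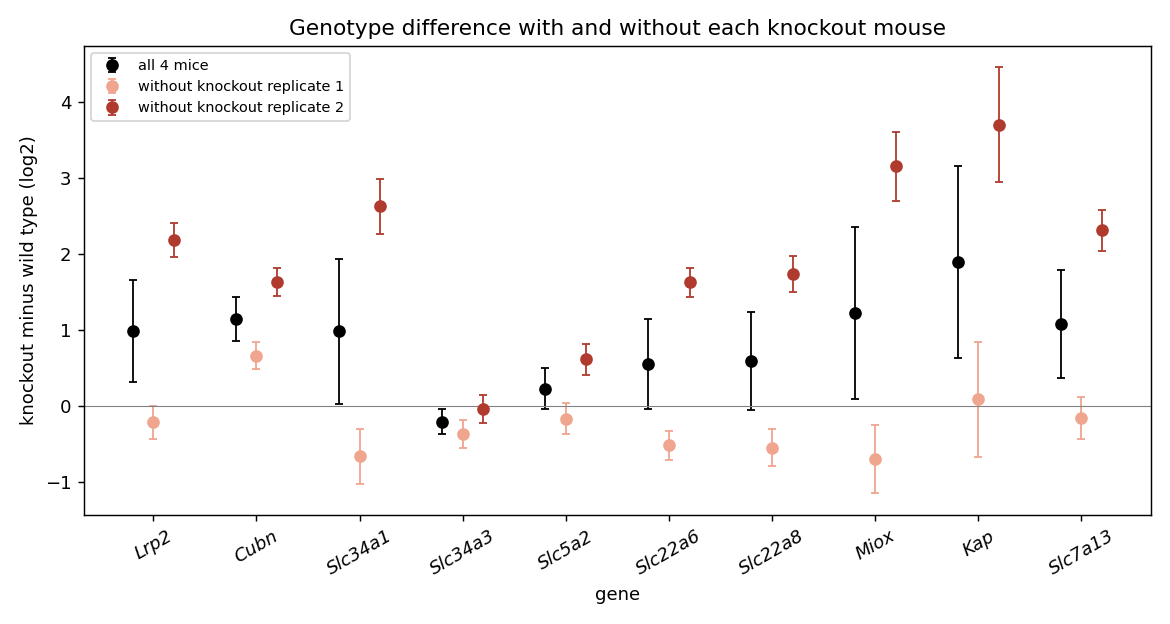
Knockout minus wild type difference in log2 units (vertical axis) for each member (horizontal axis), with all 4 mice in black, without knockout replicate 1 in light red and without knockout replicate 2 in dark red; bars are limma standard errors. The sign of 7 members turns from positive to negative when knockout replicate 1 is left out, while Cubn and Kap stay at or above 0.09.

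The wider set of tubule genes was read from 8 lists of partners (endocytosis, phosphate handling, sugar and sodium transport, organic ion transport, amino acid transport, metabolism, brush border enzymes and transcription factors). Of 123 genes in these lists 113 were tested, and the rest were not analysed here. Over all 4 arrays 4 rose in knockout (3.54%, against 1.90% of all genes), 0 fell and 109 did not pass, with a median difference of 0.19. Before adjustment of limma's p, 23 of the 113 were higher (20.4%, against 12.7% of all genes) and 19 lower (16.8%, against 13.8%). Knockout replicate 1 was at least 1 on the log2 scale above knockout replicate 2 for 32 of the 113, or 28.3% (0.694% of all genes). As far the other way lay 0. The order with knockout replicate 1 first and wild type replicate 2 second was met by 40, or 35.4% (4.36% of all genes). Without knockout replicate 2, 36 partner genes were called higher, or 31.9% (2.26% of all genes), and 0 lower. Without knockout replicate 1, 10 were called higher, or 8.85%, against 5.78% of all genes, and 13 lower, or 11.5%, against 3.26%. By list, the order of arrays was met by 7 of 11 amino acid transport, 9 of 19 organic ion, 5 of 13 sugar and sodium, 11 of 30 metabolism, 3 of 10 phosphate, 2 of 10 endocytosis, 2 of 12 brush border and 1 of 8 transcription factor genes.

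The 4 partner genes that rose are Slc47a1, an exporter of organic cations, Abcc4, an exporter of organic anions, Gldc, an enzyme of glycine breakdown, and Tfcp2l1, a transcription factor of collecting duct cells; the first 3 were chosen for naming after their values were seen. Slc47a1 measured 9.01 and 9.29 for wild type, against 9.98 and 9.94 for knockout (limma, adjusted p = 0.0394), and Abcc4 9.52 and 9.63 against 10.23 and 10.40 (adjusted p = 0.0403). Gldc rose by 0.92 (adjusted p = 0.0499) and Tfcp2l1 by 0.69 (adjusted p = 0.0482). None of these calls held with a further quantile normalization, where limma called 0 partner genes and 165 of all 19296 genes higher.

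Of 10 endocytosis genes 0 passed, although 5 were higher with a limma p under 0.05 before adjustment. Over all genes 12.7% were higher and 13.8% lower before adjustment, shares that stand beside the later lists too. Dab2, an adaptor that binds the tail of megalin and also acts in other cells, measured 10.49 and 10.43 for wild type, against 11.00 and 11.13 for knockout (adjusted p = 0.0521). Ctns, the lysosomal cystine exporter, and Gipc1, an adaptor of receptor transport, were likewise highest in knockout replicate 2, at 9.76 and 9.91. Folr1, a folate receptor taken up through megalin, followed the members with 6.46, 6.96, 7.38 and 6.20. Of 10 phosphate handling genes 0 passed (before adjustment limma put 1 higher and 1 lower), and Kl, the Klotho co-receptor for the phosphate hormone FGF23, measured 6.62, 6.99, 8.34 and 6.92. Pdzk1, a scaffold protein of the brush border, exceeded background in knockout replicate 1 alone, at 7.06. Fgfr3, a growth factor receptor, measured 8.36, 8.76, 9.17 and 9.20, and Pth1r, the parathyroid hormone receptor, 8.27, 8.49, 8.70 and 8.22.

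Of the 11 amino acid transport genes, 7 had knockout replicate 1 first and wild type replicate 2 second (4.36% of all genes). The 4 named genes had this order too, but they were picked for the widest range over the arrays. Their shared order therefore adds nothing to the count. Cltrn (collectrin), which brings amino acid transporters to the membrane, measured 5.19, 6.71, 9.66 and 5.15, and its gap between the knockout mice, 4.52, was the largest of all genes. Slc3a1, a subunit of the cystine transporter, measured 6.10, 6.55, 8.39 and 6.34. Slc6a20b and Slc6a19, carriers of proline-like and of neutral amino acids, reached 8.40 and 7.20 in knockout replicate 1. No gene of the amino acid or the sugar and sodium list passed (before adjustment of limma's p, 2 amino acid genes were higher and 1 lower, and 3 sugar and sodium genes were higher and 3 lower). Car4, a membrane carbonic anhydrase, and Slc27a2, a fatty acid carrier, were highest in wild type replicate 2 instead of knockout replicate 1. Car4 measured 10.47, 10.72, 10.30 and 9.24, and Slc27a2 10.38, 10.81, 10.75 and 8.96. Slc5a12, a lactate cotransporter, measured 5.89, 6.51, 8.38 and 5.63, and Fxyd2, a regulator of the sodium pump, 7.03, 7.94, 8.48 and 6.96. Atp1b1, a subunit of that pump, was higher in both knockout mice, at 11.17 and 10.40 against 9.84 and 10.12. Of the organic anion carriers, Slc17a1 measured 6.33, 6.71, 8.12 and 6.21, and Slc13a3, a dicarboxylate carrier, 6.46, 7.08, 8.36 and 6.45.

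Of 30 tubule metabolism genes 1 rose, Gldc, and 29 did not pass (before adjustment limma put 5 higher and 7 lower). The widest range belonged to Keg1, a kidney acyltransferase relative, at 5.88, 7.45, 10.25 and 6.28. Cyp2j5 (a cytochrome P450) and Acsm2 (a medium-chain acyl-CoA synthetase) were below background on 3 and 2 arrays and reached 8.82 and 9.33 in knockout replicate 1. Of 12 brush border enzymes 0 passed, and before adjustment 3 were higher and 2 lower by limma; Mep1a, a subunit of the protease meprin, measured 5.51, 6.33, 8.28 and 5.69. Other brush border genes had other orders. The endopeptidase Mme was highest in wild type replicate 1, at 11.64, 11.24, 11.05 and 10.68, the aminopeptidase Enpep was high in both knockout mice, at 8.92, 8.70, 9.42 and 9.44 (adjusted p = 0.0554), and the cadherin Cdhr5 measured 6.98, 6.94, 7.52 and 6.52. Hnf4a, the nuclear receptor that directs proximal tubule genes, measured 7.48, 7.75, 9.14 and 7.26. Ppara, a fatty acid sensor also found in fat and liver, measured 11.36, 11.39, 11.01 and 10.20. In both knockout mice Ppara was thus below both wild type values, as were 32.0% of all genes. Pax8, a kidney developmental factor, was highest in wild type replicate 2, at 6.80, 7.25, 7.18 and 6.49. Of the 8 transcription factor genes, limma put 1 higher and 3 lower before adjustment.

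Genes most like the members were looked for over the whole array, by the root mean square difference between a gene's values, centred on its own mean, and the members' mean centred values over the 4 arrays. The nearest was G6pc, the last enzyme of glucose synthesis, at 0.10 on the log2 scale, followed by Slc13a1, a sulfate transporter, at 0.12 and Mep1a at 0.18. Tmem52b, Hsd3b2, Slc13a3, Dao, Slc3a1, Glyat and Akr1c21 completed the 10 nearest, at 0.18 to 0.22. Of these 10, all but Tmem52b and Hsd3b2 were on the tubule lists. For the members themselves the difference ran from 0.15 for Slc7a13 to 1.03 for Kap, which had the steepest profile. Of the 50 genes with the largest excess of knockout replicate 1 over knockout replicate 2, 30 were on the lists of nephron genes used here, 7 of them members. Of the 50 with the largest excess of wild type replicate 2 over wild type replicate 1, 13 were on those lists, 4 of them members. Among the 19296 genes those lists held the 10 members and 113 tubule partner genes. They also held 11 thick limb and distal tubule, 12 collecting duct and 6 podocyte genes. Members and lists were chosen with earlier results of these data known, so these counts describe the lists and do not check them.

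Markers of later nephron segments varied in part with the members. In the list of thick limb and distal tubule, 4 of 11 genes were at least 1 on the log2 scale higher in knockout replicate 1 than in replicate 2 (0.694% of all genes). The order with knockout replicate 1 first and wild type replicate 2 next was met by 7 of the 11 (4.36% of all genes). Umod (uromodulin, the main protein of normal urine) measured 5.91, 6.18, 7.99 and 5.90. Slc12a3, the sodium-chloride cotransporter of the distal tubule, measured 6.88, 7.07, 8.55 and 6.88, and Calb1, a calcium-binding protein there, 5.22, 5.82, 7.93 and 5.31. Kcnj1, a potassium channel of the thick limb, measured 5.77, 6.17, 7.48 and 5.80. Of the 11 genes 1 rose in knockout, where 1.90% of all genes did. This was Cldn10, a tight junction protein named after its values were seen. It measured 6.87 and 7.02 for wild type, against 7.69 and 7.81 for knockout (limma, adjusted p = 0.0354).

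Of the collecting duct markers 2 of 12 had knockout replicate 1 first and wild type replicate 2 next, and of the podocyte markers 0 of 6. Over all genes the share was 4.36%, so 0 of 6 lies near it. Of 12 collecting duct genes 0 passed (before adjustment limma put 3 higher and 1 lower); Aqp3 and Scnn1g, a water channel and a sodium channel subunit that urothelium also makes, were highest in knockout replicate 2, at 12.51 and 10.79. Knockout replicate 1 was nevertheless above knockout replicate 2 for 8 of the 12, among them Hsd11b2, a cortisol-inactivating enzyme, at 7.51, 7.85, 8.36 and 7.40, and Atp6v0d2, a proton pump subunit, at 5.96, 5.64, 6.63 and 5.72. Podocytes are the filter cells of the glomerulus. Of 6 podocyte genes 0 passed, and 2 were lower before adjustment of limma's p. None was at least 1 higher in knockout replicate 1 than in replicate 2, near the share of 0.694% over all genes. Nphs1 (nephrin) measured 7.02, 7.38, 6.62 and 6.76. Wt1 and Cdkn1c, at 6.87 and 7.22 and at 8.09 and 7.88 in the knockout mice, were likewise below both wild type values. This held for 4 of the 6 podocyte genes, against 32.0% of all genes. Synpo, at 7.64 and 7.51, was above both wild type values, as were 28.0% of all genes. Whether these lists differ from the members beyond the spread between mice was not tested.

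**Figure D4:**
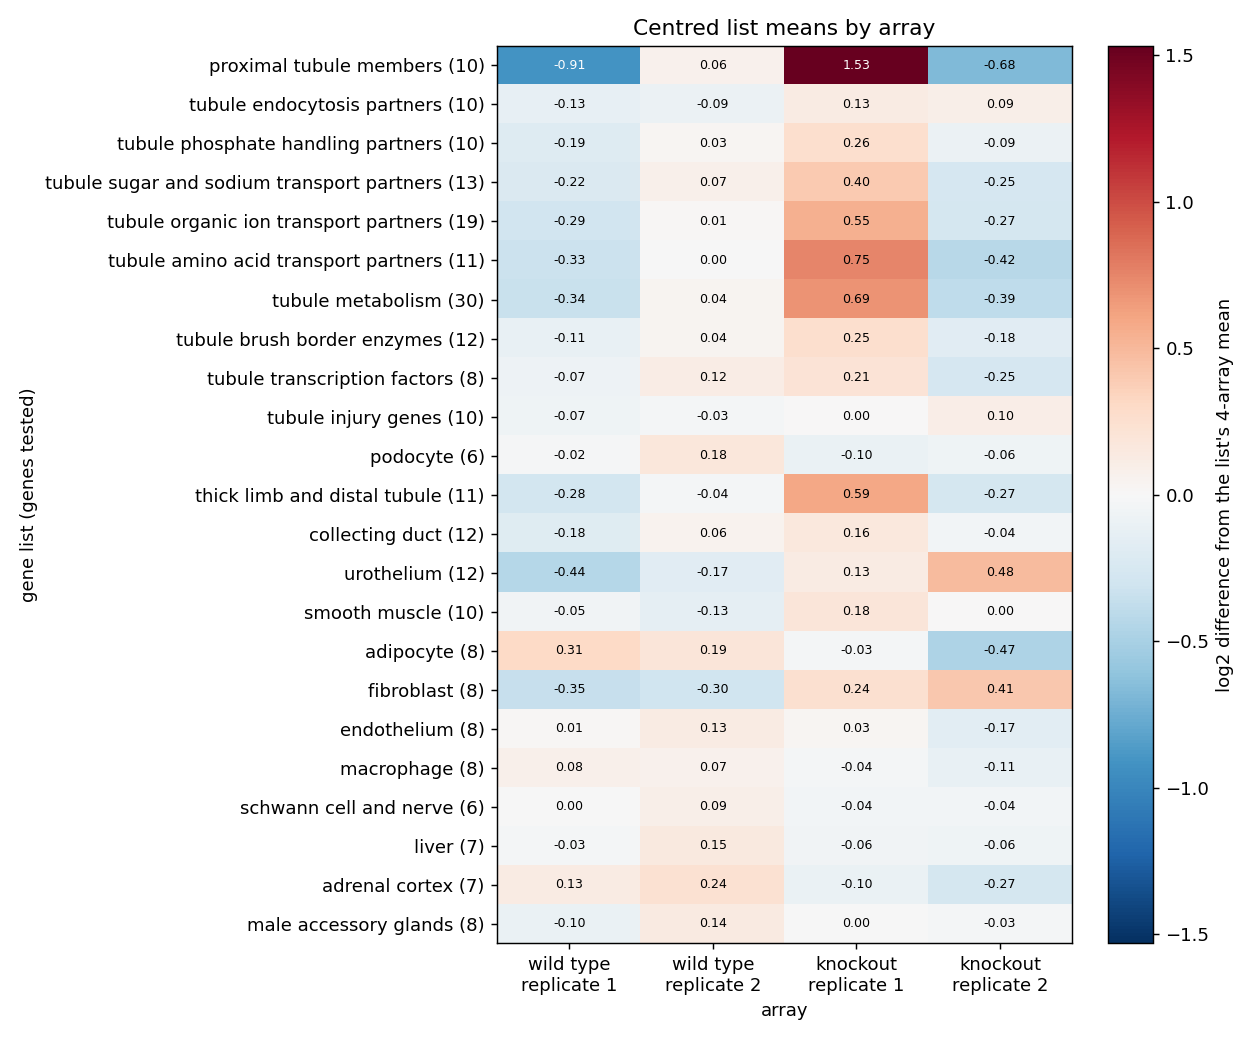
Mean log2 value of each gene list on each array minus the list's mean over the 4 arrays, in log2 units, with arrays in columns, lists in rows and the number of genes tested in parentheses. The members span -0.91 to 1.53 with their peak in knockout replicate 1, while urothelium peaks in knockout replicate 2 at 0.48.

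Of the cell types of the ureter wall, 12 of 12 urothelium and 10 of 10 smooth muscle markers were above background on all arrays. So were 8 of 8 adipocyte, fibroblast, endothelial and macrophage markers each, and 70.0% to 73.8% of all genes on each array. These counts therefore do not single out ureter. The array orders of these lists were other than that of the members. The urothelium mean reached 11.47 and 11.73 for wild type and 12.04 and 12.39 in the knockout mice, the adipocyte mean 13.02 and 12.90 against 12.69 and 12.25, the fibroblast mean 10.52 and 10.57 against 11.11 and 11.28, and the smooth muscle mean 11.33 and 11.25 against 11.56 and 11.38. Knockout replicate 1 was below knockout replicate 2 for all 12 urothelium genes and 7 of 8 fibroblast genes, and above it, as for the members, for 10 of 10 smooth muscle and 8 of 8 adipocyte genes. It was the highest of the 4 arrays for 8 of 10 smooth muscle genes, and for 0 of 8 adipocyte genes. Of the urothelium genes 1 of 12 rose (Trp63, a basal cell factor, by 0.83), where 1.90% of all genes did. Of the fibroblast genes 3 of 8 rose (Lum, Col1a1 and Col1a2, matrix genes, by 0.79 to 1.70). The limma adjusted p of these 4 genes ran from 0.0147 to 0.0486, and all 4 were named after their values were seen. Before adjustment, 12 of 12 urothelium, 7 of 8 fibroblast and 4 of 10 smooth muscle genes were higher, against 12.7% of all genes. Of the adipocyte genes 5 of 8 were lower before adjustment, against 13.8% of all genes. Endothelial means ran from 10.09 to 10.38, macrophage means from 9.04 to 9.24 and nerve means from 8.10 to 8.23. Of 8 male accessory gland genes 0 exceeded background on any array, and of 7 adrenal cortex and 7 liver genes 3 and 4 did so on at least 1 array. The 2 brightest genes of each of the 10 lists of other cell types made 20 in all. Their differences ran from -0.96 (Mc2r, of the adrenal list) to 0.46 (Dpt, of the fibroblast list). Of these 20 limma called 0, against 1.90% of all genes called higher and 0.477% lower. Before adjustment it called 9, against 12.7% of all genes higher and 13.8% lower. The order of arrays that 8 members shared was met by 0 of the 20, near the 4.36% of all genes. The part of these cell types in the members' values was not tested.

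Genes known to mark injured tubule cells had knockout replicate 1 as the highest array in 0 of 10 cases, against 9 of 10 members and 17.3% of all genes. Of these 10 genes, 2 did not exceed background on any array. Whether the values of the others come from tubule cells or from the ureter itself was not tested. Havcr1, the kidney injury molecule of the proximal tubule, was below background on all 4 arrays, from 5.56 to 6.03 (limma, adjusted p = 0.211), and was chosen for naming after its values were seen. Of the 10 injury genes tested, 1 rose, the adhesion molecule Vcam1, by 0.89 (limma, adjusted p = 0.0403), and 9 did not pass. Krt20 and Timp1, both also made outside the kidney, differed by 0.66 and 0.30 (limma, adjusted p = 0.0968 and 0.184). Clu (clusterin) differed by -0.33 (limma, adjusted p = 0.196). Both its knockout values lay below both wild type values, as for 32.0% of all genes. Of the 10 genes 5 were higher on average in knockout, and the median difference was -0.04.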

How the data were processed

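RNA from the ureter of 4 mice was measured on Affymetrix whole-transcript arrays. The values are log2 expression values deposited by the authors, with a single value for each probe set on each array; the submitters' processing notes list RMA with R 2.15.0 and limma 3.12.1. RMA makes array distributions alike, which would shrink a shift common to most genes. The probe sets' genome build was not given in the sources used here. Of 23309 probe sets 20728 had 1 symbol, 1174 several and 1407 none; only the first were used, 19296 genes after keeping the brightest probe set of each. Arrays have no counting depth, and 2 mice per genotype limit the precision.

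Knockout was compared with wild type across all genes by limma 3.58.1 in R 4.3.3 (lmFit, eBayes), with Benjamini-Hochberg adjusted p over all genes; SE is its moderated standard error, and the script was tested on simulated data. The series' design text describes the mice as biological replicates. Background was the 95th percentile of the means of 1024 olfactory receptor genes; a fold against a value below it is a bound, taken against the background level. A group fold is given only as such a bound, and folds between 2 arrays come from 2 raised to their log2 gap. Named genes were the members, the 4 of widest range above background in each nephron list, the brightest 2 of other lists (given as a range), and the 10 most like the members; others are marked. Members and lists were chosen with earlier results of these data known. The alternatives tried were a filter on dim genes, a replicate block, further quantile normalization, median centring, averaging of a gene's probe sets, array weights, an eBayes trend on intensity, robust eBayes, other thresholds and background levels, and leaving out each mouse.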

Additional observations from a re-analysis of the deposited data

How the results depend on the processing

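Under the 8 alternative fits that kept all 4 mice, each of the 10 members kept the sign of its difference, and the median over members ran from 0.92 with arrays centred on their medians to 0.99. The replicate block, with mice that share only a number (their deviations from the genotype means correlated at r = -0.028 over all genes), called 1 member higher, Cubn (adjusted p = 0.0282), and an adjusted p of 0.1 also called 1. It moved the calls over all genes from 459 to 1922, and those among the tubule partners to 14 higher and 8 lower. Leaving out each mouse in turn gave 0 to 8 members called higher, 0 called lower, and a median of -0.29 to 1.96. Without knockout replicate 1 the differences reversed for Lrp2 (-0.21), Slc34a1 (-0.66), Slc5a2 (-0.16), Slc22a6 (-0.51), Slc22a8 (-0.54), Miox (-0.69) and Slc7a13 (-0.16), and without wild type replicate 1 for Slc5a2 (-0.01). Without knockout replicate 2 they were 2.19, 2.63, 0.62, 1.63, 1.74, 3.15 and 2.31 for the first 7 genes in that order. Partner genes called higher ran from 0 to 36, and lower from 0 to 13, over these leave-outs, and over all genes 0 were called without wild type replicate 1 or 2 and 1744 without knockout replicate 1. Partner calls were 0 higher and 0 lower with a further quantile normalization (215 of all genes called), 2 higher and 1 lower with centred arrays (where 245 of 393 calls over all genes, 62.3%, were higher, against 367 of 459, 80.0%), 9 higher and 3 lower with robust eBayes (902 of all genes), and 6 higher and 2 lower with the filter on dim genes. With the 99th percentile as background, 0 and 3 members were above it for the wild type mice and 9 and 1 for the knockout mice. The cause of these changes was not tested. Counts of the members' array order and of gaps of at least 1, with alternatives chosen after seeing the data, stayed at 8 and 7 with quantile normalization, centring and averaged probe sets. The number of arrays limits every value.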
